A study of Mus musculus with 6 samples.

Results

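The Sprouty, Spred and dual-specificity phosphatase (DUSP) feedback genes are inhibitors of the RAS-ERK pathway whose own transcription is switched on by that pathway. The members were fixed by name, with earlier results of these data known. They are Spry1, Spry2, Spry4, Spred1, Spred2, Dusp1, Dusp4, Dusp5 and Dusp6. Each was found as 1 row among the 57180 gene rows of the expression table, so 9 of 9 were measured. Counts came from stranded libraries of poly(A) RNA. All 6 were made from the line GC-1 spg, which is derived from mouse type B spermatogonia, was immortalised, and was kept in serum. Of 6 libraries, 3 carry the genotype label SNHG1 Overexpression and 3 the label Vector Control, all taken 24 hours after transfection, and SNHG1 is the host gene of several small nucleolar RNAs that also yields a long non-coding RNA. Every library in both groups also carries the treatment label Non-obstructive azoospermia, a form of male infertility with failing sperm production, although all 6 are the same cell line. The labels give neither the construct's sequence nor whether replicates were separate cultures. The p-values therefore reflect differences among these 6 libraries alone, and that spread may be technical.

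Growth factors that bind receptor tyrosine kinases load RAS with GTP, and RAS then activates the kinases RAF, MEK and ERK in turn. Sprouty proteins act between the receptor and RAF, Spred proteins bring the RAS inactivator neurofibromin to the membrane, and DUSPs of this class remove the activating phosphates from ERK or its relatives. In the testis, GDNF and FGF2 signal through such receptors to maintain spermatogonial stem cells.

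In the cells labelled as overexpressing SNHG1, Spry1 was lower by 43.7% and was the only member that passed the test. Its call was lost without vector control replicate 1 and without vector control replicate 3. The other 7 tested members did not pass. Spry2, Spred1 and Dusp5 had lower values with no overlap between groups, and Dusp6 had slightly higher values with no overlap. Spred2, Dusp1 and Dusp4 overlapped. Over all tested genes, 23.7% had no overlap in either direction. Spry4 had at most 4 counts in any library and was not tested. Over the 8 tested members 4 log2 fold changes were negative and 4 positive, with a median of -0.05 against 0.01 over all 14605 tested genes.

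Spry1 is the member that passed the test, and Dusp1 and Dusp5 hold the only motif matches among the 7 members searched. The start regions of these 3 members are shown. Each is the 250 bases before the RefSeq start of the gene in GRCm38.p6, read 5′ to 3′ on the gene's own strand, and capitals mark a motif match. Spry1 lies on the plus strand (chr3:37639697-37639946), Dusp1 on the minus strand (chr17:26508473-26508722) and Dusp5 on the plus strand (chr19:53528895-53529144).
Spry1: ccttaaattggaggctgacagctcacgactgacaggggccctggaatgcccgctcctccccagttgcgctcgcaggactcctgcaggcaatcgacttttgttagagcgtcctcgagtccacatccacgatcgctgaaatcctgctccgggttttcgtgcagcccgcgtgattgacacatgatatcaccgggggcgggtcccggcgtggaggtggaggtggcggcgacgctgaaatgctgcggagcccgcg
Dusp1: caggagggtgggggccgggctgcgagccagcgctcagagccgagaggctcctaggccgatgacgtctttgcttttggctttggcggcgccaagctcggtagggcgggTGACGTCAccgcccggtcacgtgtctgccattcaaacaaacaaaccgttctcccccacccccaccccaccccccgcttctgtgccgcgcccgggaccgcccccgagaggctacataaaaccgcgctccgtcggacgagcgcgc
Dusp5: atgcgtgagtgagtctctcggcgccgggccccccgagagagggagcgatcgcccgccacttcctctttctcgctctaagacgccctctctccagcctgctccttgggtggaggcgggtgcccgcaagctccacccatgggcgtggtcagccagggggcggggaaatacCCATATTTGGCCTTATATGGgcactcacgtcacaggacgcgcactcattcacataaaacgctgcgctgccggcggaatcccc
Dusp4 and Spry4 were not searched, and RefSeq windows were matched by symbol for the other 7 of the 9 members. Across both strands of these, 5 motifs were searched: the CREB element TGACGTCA, the AP-1 site TGANTCA, the ETS site CCGGAA, the CArG box bound by serum response factor, and the NF-kappaB site. Dusp1 holds the CREB element from -143 to -136 relative to its start, a motif that 1.55% of 32851 windows of the same length hold. The Dusp5 window has 2 adjoining CArG boxes, from -82 to -73 and from -72 to -63, and 1.47% of all windows hold at least 1. None of the 5 motifs was found in the Spry1 window, nor in those of Spry2, Spred1, Spred2 and Dusp6, and over all windows the AP-1, ETS and NF-kappaB motifs occur in 6.75%, 12% and 3.9%. A match is a string of letters and was not tested for binding.

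Total counts were 15521900 to 21095427 per library, and levels are given as CPM, counts scaled to a library of 1000000 with TMM factors. By counting error alone, a count of 0 in the shallowest library allows up to 0.193 CPM. On the second principal component SNHG1 overexpression replicate 1 lay far from the rest of its group (24.3, with -6.60 and -11.6 for replicates 2 and 3). Snhg1 itself had 467, 555 and 487 counts in the libraries labelled overexpression and 464, 402 and 385 in the vector libraries, with a log2 fold change of 0.14 ± 0.10 (SE) and an edgeR adjusted p of 0.52. Because the counted mouse gene does not separate the groups, every direction here is that of the labels. Defining germ cell markers were almost absent: of 12 listed, 6 had 0 counts in all libraries, among them Ddx4, Zbtb16 and Kit, and only Gfra1 passed the low-count filter, so these markers did not show the labelled cell type. Over all tested genes edgeR called 350 changed at an adjusted p under 0.05, which is 2.40%, and 125 of these were lower, which is 0.856%; without single libraries the number called ran from 123 to 807.

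**Figure D1:**
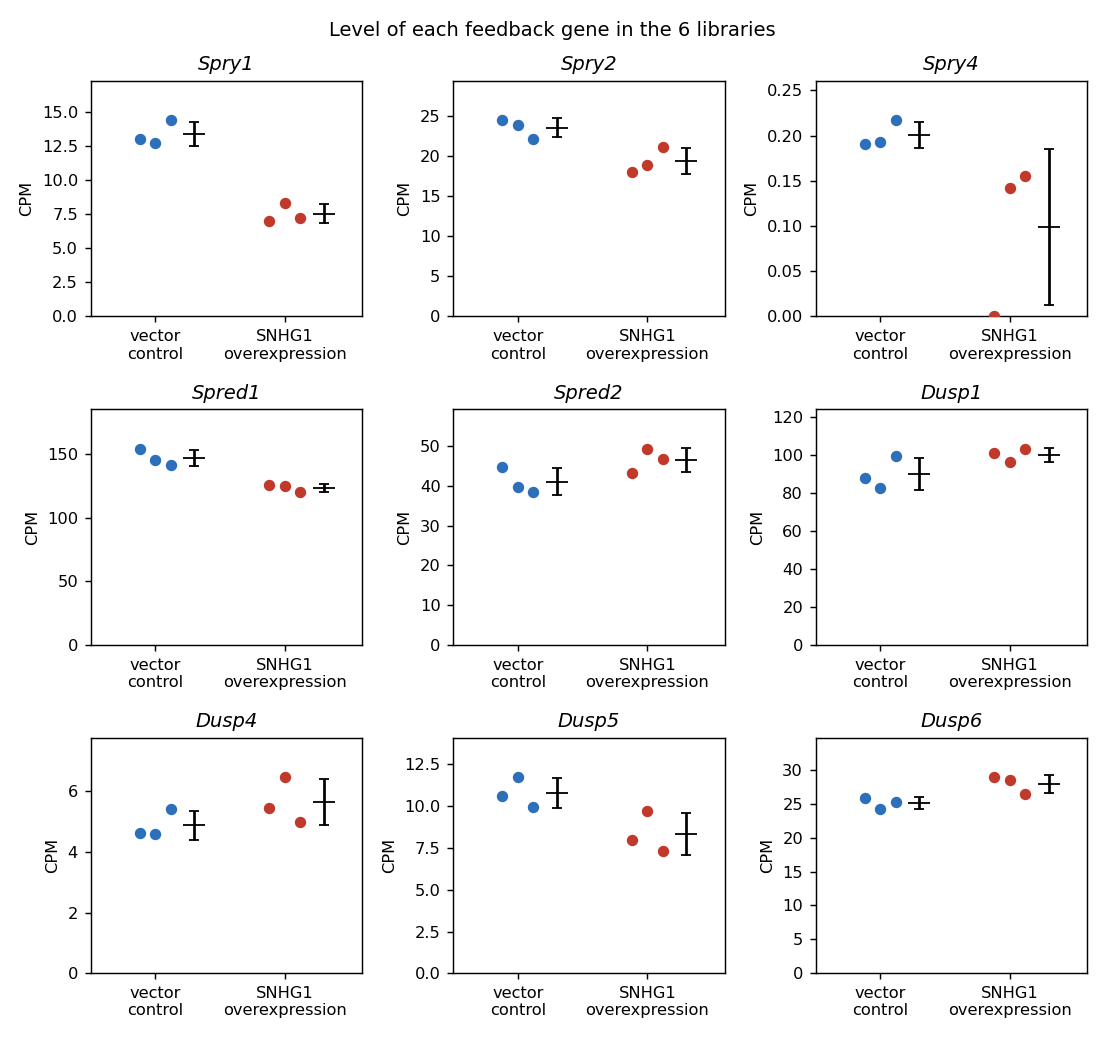
Level of each of the 9 feedback genes in CPM (y axis, from 0) in the 3 vector control libraries (blue) and the 3 libraries labelled SNHG1 overexpression (red), with the mean and SD beside them. Spry1 sits between 12.8 and 14.4 CPM in the vector libraries and between 7.03 and 8.35 CPM in the others, the widest gap of the 8 tested genes relative to their level.

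Of the Sprouty genes, which block signalling between the receptor and RAF, Spry1 fell, Spry2 did not pass and Spry4 was hardly detected. Spry1 (ENSMUSG00000037211, chromosome 3, 37694096 to 37698747 in the deposited table, whose build is not named) had counts of 137, 176 and 140 with the overexpression label and of 274, 198 and 266 with the vector. Scaled to depth these were 7.03, 8.35 and 7.26 CPM against 13.0, 12.8 and 14.4 CPM, so the highest labelled library lay well under the lowest vector library. The means were 7.55 ± 0.707 and 13.4 ± 0.888 CPM (SD, n = 3), and the log2 fold change was -0.83 ± 0.11 (SE; 95% interval -1.09 to -0.56; edgeR adjusted p = 0.0114). Spread between replicates was close to what counting alone gives, with a coefficient of variation of 9.36% (labelled) and 6.62% (vector), where the counts alone give 8.14% and 6.38%. The call was lost without vector control replicate 1 (adjusted p = 0.0518) and without vector control replicate 3 (adjusted p = 0.0539), while the fold change stayed between -0.91 and -0.78 in all 14 alternatives and DESeq2 gave an adjusted p of 2.649e-05. Without SNHG1 overexpression replicate 1, the library that stood apart, it was -0.78 ± 0.12 (SE, adjusted p = 0.0218).

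Spry2, which like Spry1 is an ERK-induced inhibitor of FGF receptor signalling, had 18.1, 18.9 and 21.2 CPM in the labelled libraries and 24.5, 23.9 and 22.2 CPM in the vector libraries. The groups did not overlap, but the highest labelled and lowest vector library were near each other. Its log2 fold change was -0.28 ± 0.09 (SE; 95% interval -0.49 to -0.07), and it did not pass (edgeR adjusted p = 0.182). Spry4, which like the others is induced by growth factors in many cell types, had 0, 3 and 3 counts against 4, 3 and 4. No library exceeded the floor of 3 counts by more than 1 count, so no fold change is given and a difference was not detectable at this depth. Of the family, Spry1 and Spry2 were thus the members with usable counts.

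Spred1 and Spred2, which share an EVH1 domain that binds neurofibromin and a Sprouty-like end, had log2 fold changes of opposite sign, and neither passed. Spred1 stood at 125.4, 124.7 and 120.2 CPM in the labelled libraries and at 154.2, 145.5 and 141.1 CPM in the vector libraries, with every labelled library below every vector library. The log2 fold change was -0.25 ± 0.06 (SE; 95% interval -0.38 to -0.12), and the edgeR adjusted p of 0.0666 missed the threshold. It passed with DESeq2 (adjusted p = 0.0311) and in none of the other 13 alternatives, over a range of 0.0311 to 0.216. With trends of GC content and transcript length removed, the fold change shrank to -0.15 (adjusted p = 0.211).

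Spred2 stood at 43.3, 49.3 and 46.8 CPM against 44.9, 39.8 and 38.5 CPM, so the lowest labelled library was below the highest vector library. Its log2 fold change of 0.18 ± 0.08 (SE; 95% interval -0.01 to 0.37) did not pass (edgeR adjusted p = 0.323). The third Spred gene, Spred3, had means of 19.9 CPM in both groups. Nf1, which encodes the neurofibromin that Spred proteins recruit, was at 92.9 ± 2.26 against 103 ± 6.88 CPM (SD, n = 3) and did not pass either (edgeR adjusted p = 0.296).

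The 2 ERK-selective phosphatase genes, Dusp5 and Dusp6, had log2 fold changes of opposite sign, and neither passed. Dusp5, whose product works on ERK in the nucleus, had 7.95, 9.73 and 7.31 CPM in the labelled libraries and 10.6, 11.7 and 9.98 CPM in the vector libraries. The groups did not overlap, but the highest labelled and the lowest vector library were closer to each other than the SD within either group. The log2 fold change was -0.37 ± 0.14 (SE; 95% interval -0.69 to -0.05; edgeR adjusted p = 0.231). Dusp6, the cytoplasmic ERK phosphatase and a widely used readout of ERK activity, had 28.9, 28.4 and 26.4 CPM against 25.8, 24.2 and 25.2 CPM. All 3 labelled libraries were above all 3 vector libraries by a small margin, and the log2 fold change was 0.15 ± 0.07 (SE; 95% interval -0.02 to 0.33; edgeR adjusted p = 0.335).

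Dusp1 and Dusp4 encode nuclear phosphatases that act on JNK and p38 kinases as well as ERK, and neither passed. Dusp1, an immediate early gene also induced by stress, had 101.1, 96.2 and 103.3 CPM against 88.0, 82.9 and 99.4 CPM, so vector control replicate 3 reached into the labelled range. Its log2 fold change was 0.15 ± 0.08 (SE; 95% interval -0.02 to 0.33; edgeR adjusted p = 0.345). The deposited interval of Dusp1 is 56539 bp long and overlaps the abundant gene Ergic1, and the strand setting of the counting is not given, so reads shared between them were not told apart here. Dusp4 had 5.44, 6.45 and 4.98 CPM against 4.62, 4.58 and 5.42 CPM, overlapping groups with a log2 fold change of 0.21 ± 0.15 (SE; 95% interval -0.14 to 0.55; edgeR adjusted p = 0.512). Without SNHG1 overexpression replicate 2 the value for Dusp4 was 0.10, and without vector control replicate 2 that for Dusp1 was 0.09.

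**Figure D2:**
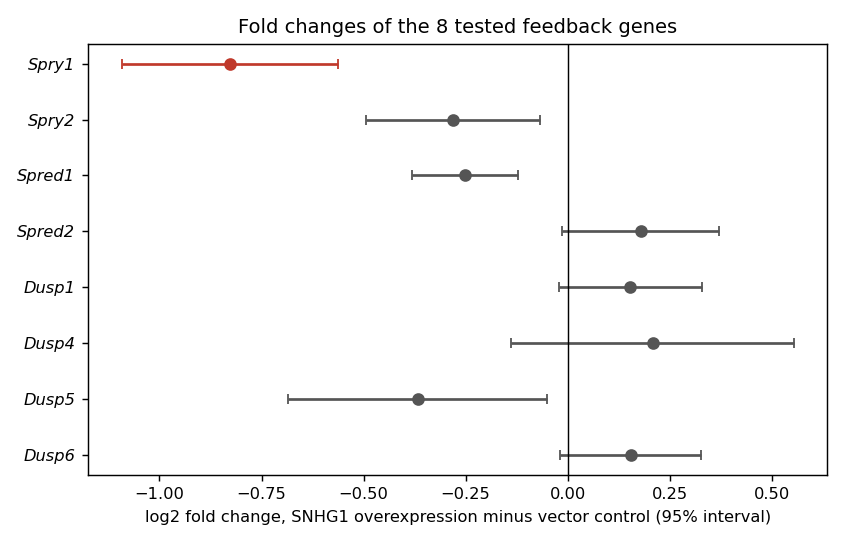
Log2 fold change (x axis, SNHG1 overexpression minus vector control) with its 95% interval for the 8 tested feedback genes, from the edgeR fit over all genes. Spry1 (red) is the only gene past the threshold; the intervals of the other 7 lie between -0.69 and 0.55.

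Read against all genes, 1 of 8 tested members was called, beside 2.40% of all tested genes and 0.856% called lower. The libraries of the groups did not overlap for 5 of 8 tested members, 4 lower and 1 higher, beside 23.7% of all tested genes. An unadjusted p under 0.05 was reached by 4 of 8, beside 17.0% of all tested genes. The 95% intervals of the 7 members that did not pass ran from -0.69 to 0.55, so changes of 2-fold or more lay outside all 7. Those of Spry2, Spred1 and Dusp5 held only negative values, whereas those of Spred2, Dusp1, Dusp4 and Dusp6 held both signs. The intervals are not adjusted for the number of genes tested.

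Because counts of 2 genes in 1 library share its depth, the ratio of Spry1 to another member needs no scaling between libraries. Spry1 had 1.29, 1.29 and 1.46 counts per Dusp4 count in the labelled libraries and 2.82, 2.79 and 2.66 in the vector libraries. Per Spry2 count it had 0.389, 0.442 and 0.342 against 0.532, 0.534 and 0.649. The ratio of Spry1 to each of the 7 other tested members was lower in all 3 labelled than in all 3 vector libraries, by 0.45 on the log2 scale for Dusp5 to 1.03 for Dusp4. An exact two-sided permutation test gave p = 0.1 for each of the 7 ratios (0.1 after Benjamini-Hochberg adjustment), which is the smallest value that 3 against 3 libraries allow. These ratios were formed after the fold changes had been seen, and all 7 share the Spry1 counts, so they are not independent tests.

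Levels of different members were compared per length, as CPM per kilobase of exon in the GENCODE M21 annotation. In the vector libraries Dusp1 was highest at 27.2 ± 2.55, followed by Spred1 at 21.7 ± 0.984 and Spry2 at 11.3 ± 0.567 (CPM per kb, SD, n = 3). Spred2 at 8.89 ± 0.729 and Dusp6 at 8.01 ± 0.269 differed by less than their SDs added, as did Spry1 at 4.61 ± 0.306 and Dusp5 at 4.36 ± 0.359. Dusp4 stood at 1.78 ± 0.174 and Spry4 was lowest at 0.0421 ± 0.00305. In the labelled libraries the level of Spry1 was 2.60 ± 0.243 and that of Dusp5 3.37 ± 0.506, so Spry1 stood below Dusp5 by more than their SDs added, while Spry2 (9.29 ± 0.779) differed from neither Spred2 (10.1 ± 0.656) nor Dusp6 (8.91 ± 0.416) by that much. Order depends on the length used: the authors' deposited FPKM in the vector libraries put Spred1 (20.8 ± 0.906) above Dusp1 (14.7 ± 1.38), and Dusp6 (4.22 ± 0.135) level with Dusp5 (4.35 ± 0.361), since the FPKM of Dusp6 implies a length of 5928 bp although the gene spans 4259 bp. By FPKM Spry2, Spred2 and Dusp6 lay apart by more than their SDs added, while Spry1 and Dusp5 in the vector libraries did not: in the labelled libraries Spry2 stood at 9.30 ± 0.806, Spred2 at 6.65 ± 0.439 and Dusp6 at 4.72 ± 0.208, and in the vector libraries Spred2 at 5.85 ± 0.468 lay above Dusp6 (FPKM, SD, n = 3).

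The rest of the Sprouty, Spred and MAP kinase phosphatase families did not pass. Of 6 tested genes (Spred3, Dusp7, Dusp8, Dusp9, Dusp10 and Dusp16), 0 passed edgeR. The unadjusted edgeR p was under 0.05 for 2, beside 17.0% of all tested genes. With DESeq2 1 passed, and with limma-voom 0. The 2 with the low unadjusted p were the ERK phosphatase genes Dusp7, at 77.7 ± 6.67 against 62.1 ± 4.29 CPM, and Dusp9, at 34.2 ± 3.16 against 27.4 ± 2.82 CPM (SD, n = 3). Both were higher in the labelled libraries without overlap, and 23.7% of all tested genes had no overlap in either direction. The immune-cell phosphatase gene Dusp2 had 0 counts in all libraries. Among 8 tested atypical dual-specificity phosphatase genes 0 passed edgeR, DESeq2 or limma-voom, and the unadjusted edgeR p was under 0.05 for 1.

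Above the feedback genes, 2 growth factor genes and 2 receptor genes rose and 1 receptor gene fell, where 2.40% of all tested genes changed. Of 13 tested ligand genes, Gdnf and Fgf7 rose and 0 fell with edgeR, with a median log2 fold change of -0.01. DESeq2 called 2 higher and 1 lower, and limma-voom 2 higher and 0 lower. The unadjusted edgeR p was under 0.05 for 7, beside 17.0% of all tested genes. Without overlap between groups, 3 were higher and 3 lower, beside 23.7% of all tested genes in either direction. Gdnf, the niche factor of spermatogonial stem cells, stood at 64.7, 58.7 and 59.3 CPM against 41.9, 40.5 and 41.7 CPM, with no overlap and a log2 fold change of 0.56 ± 0.06 (SE; edgeR adjusted p = 0.0045). Its signalling receptor Ret had 0 counts in every library, and the co-receptor Gfra1 stood at 2.42 against 1.92 CPM on average (edgeR adjusted p = 0.486). Fgf7, a mesenchymal factor for epithelial cells, was at 220 ± 3.15 against 175 ± 6.73 CPM (SD, n = 3).

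Among 13 tested receptor tyrosine kinase genes the median log2 fold change was 0.07. Fgfr1, a main receptor for FGF2, stood at 74.2, 71.6 and 69.3 CPM in the labelled libraries and at 50.6, 49.2 and 52.0 CPM in the vector libraries, and rose by 0.50 ± 0.06 on the log2 scale (SE; edgeR adjusted p = 0.00487). Pdgfra, the PDGF receptor of mesenchymal cells, rose by 0.47 ± 0.07, and the collagen receptor gene Ddr2 was at -0.35 ± 0.05 (log2, SE) and fell. Gdnf and Fgfr1 passed in all 14 alternatives. Pdgfra lost its call when any of the 3 vector libraries was left out (adjusted p = 0.051, 0.0678 and 0.069 without replicates 1, 2 and 3), and Fgf7 and Ddr2 lost theirs in 6 alternatives each, without every library other than SNHG1 overexpression replicate 1 and with the replicate number as a block.

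In the list of the cascade that the feedback genes restrain, no tested gene passed. Map3k8, a kinase that also feeds MEK and ERK, was placed in the p38 and JNK list instead and rose. Of 22 tested genes from Grb2 to the ERK-activated RSK kinases, 0 passed edgeR, DESeq2 or limma-voom. The unadjusted edgeR p was under 0.05 for 5, beside 17.0% of all tested genes, and the median log2 fold change was -0.02. Mapk3, which encodes the kinase ERK1, stood at 87.2 ± 1.62 against 89.2 ± 1.22 CPM (SD, n = 3), with a 95% interval of the log2 fold change of -0.15 to 0.08. The adaptor genes Crk and Grb2, named after their values were seen, varied widely within groups. Crk had counts of 1374, 3737 and 3400 (labelled) and 3869, 966 and 1120 (vector), and Grb2 had 1318, 3078 and 2901 against 2856, 1101 and 1484, so both were high in the same 3 libraries, 2 labelled and 1 vector.

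Among other inhibitors of receptor and RAS signalling, 3 of 18 tested genes rose and 0 fell, where 2.40% of all tested genes changed. The median log2 fold change was 0.03. Lrig1, a membrane protein that promotes breakdown of the EGF receptor, had 343, 240 and 221 CPM against 140, 96.9 and 124 CPM and rose by 1.16 ± 0.19 on the log2 scale (SE; edgeR adjusted p = 0.0196). Its call was lost without vector control replicate 1, 2 or 3 (adjusted p = 0.055, 0.0698 and 0.0831). The remaining increases were in genes of the SOCS-box group whose best known targets are not RAS or ERK: Socs3, a brake on JAK-STAT signalling from cytokine receptors, at 97.9 ± 9.61 against 47.8 ± 7.01 CPM, and Spsb1, an adaptor of ubiquitin ligases, at 51.8 ± 5.99 against 37.5 ± 1.90 CPM (SD, n = 3). Spsb1 kept its call in 6 of 14 alternatives. Il17rd, which encodes the FGF receptor inhibitor Sef, was at 6.60 ± 0.389 against 6.44 ± 1.11 CPM and did not pass (edgeR adjusted p = 0.941).

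Of 21 tested genes that ERK activity commonly induces, Ier3 and Fosl1 rose and 0 fell, where 2.40% of all tested genes changed. The median log2 fold change was 0.13. DESeq2 called 7 of the list and limma-voom 4, where they called 648 and 347 genes in all, against 350 with edgeR. The edgeR count was 5 without SNHG1 overexpression replicate 1, 2 without vector control replicate 3, and 1 without any other single library. Ier3, an immediate early gene that NF-kappaB also induces, had 51.2, 69.3 and 65.8 CPM against 28.8, 28.3 and 31.9 CPM and rose by 1.07 ± 0.12 (log2, SE; edgeR adjusted p = 0.00379). Fosl1, which encodes the AP-1 protein FRA1, was at 62.5 ± 8.09 against 42.8 ± 3.75 CPM (SD, n = 3) and kept its call in 6 of 14 alternatives. Egr1, the early growth response factor, was lower without overlap, at 85.7 ± 4.48 against 105 ± 4.73 CPM, and missed the threshold (edgeR adjusted p = 0.0556).

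Other named output genes that often move with Dusp6 and the Sprouty genes did not pass edgeR. The ETS factor genes Etv4 and Etv5 were at 0.32 ± 0.23 and -0.13 ± 0.17 (log2, SE). Fos was at 0.15 ± 0.15, Ccnd1 (cyclin D1) at 0.07 ± 0.08 and Phlda1 at 0.41 ± 0.10 (log2, SE). Among these, Phlda1 lay furthest from no change relative to its SE. In the p38 and JNK cascade, 1 of 15 tested genes rose and 1 fell, with a median log2 fold change of 0.18. Map3k8, a kinase that feeds MEK and ERK downstream of Toll-like and IL-1 receptors, rose from 4.75 ± 0.827 to 9.73 ± 0.606 CPM (SD, n = 3), a log2 fold change of 1.03 ± 0.15 (SE; edgeR adjusted p = 0.0143; 0.051 without vector control replicate 1). Map2k6, a kinase that activates p38, was at 13.0 ± 0.268 against 18.7 ± 0.504 CPM and fell, with its call lost in 6 alternatives, without every library other than SNHG1 overexpression replicate 1 and with the replicate block. Over the 8 lists around the feedback genes, 12 of 116 tested genes changed, 10 higher and 2 lower, beside 2.40% of all tested genes. The lists were chosen with earlier results of these data known, so this contrast is not an independent test. Without single libraries the ligand, receptor and inhibitor lists had 1 to 3 changed genes each, and the p38 and JNK list 0 to 2. For all 8 lists together the count was 7 without SNHG1 overexpression replicate 2 and 21 with DESeq2. Leaving out vector control replicates 1, 2 and 3 gave 4, 5 and 6.

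**Figure D3:**
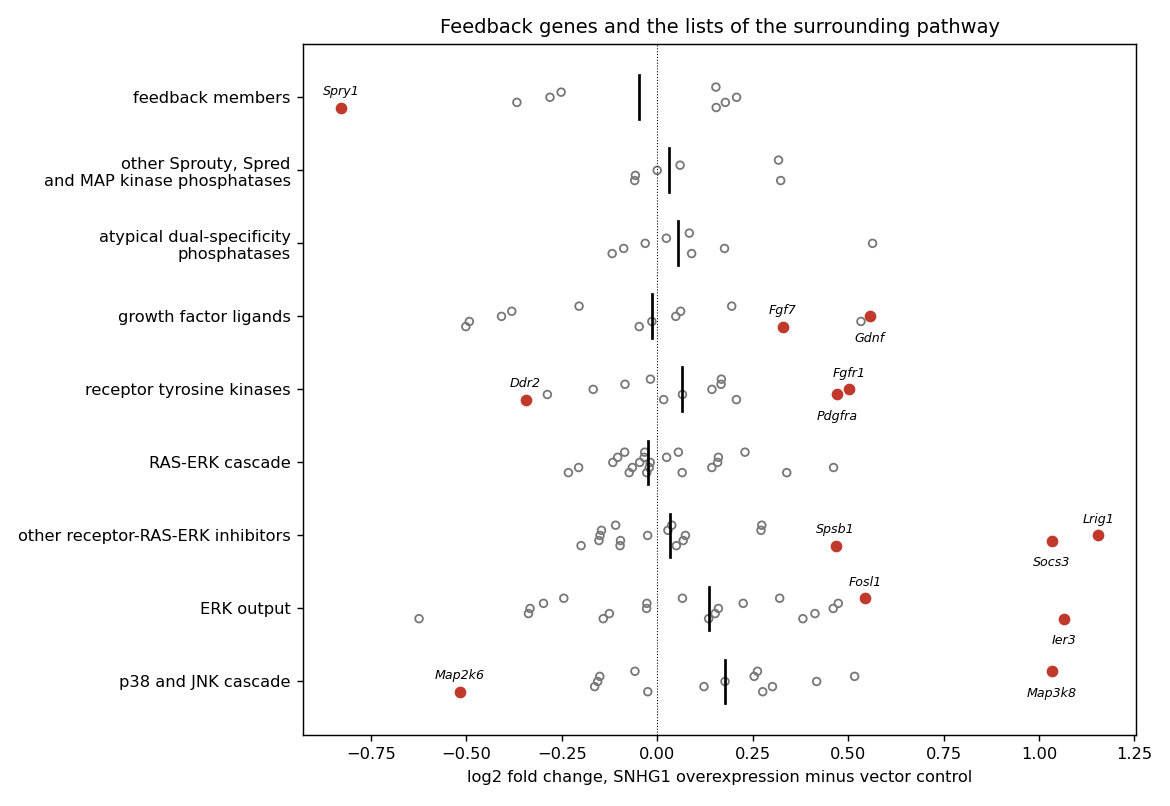
Log2 fold change (x axis) of every tested gene in the feedback set and in 8 lists of the surrounding pathway (rows); filled red points passed edgeR at an adjusted p under 0.05, open points did not, and black bars are medians. Spry1 is the lowest point, and the RAS-ERK cascade list, which does not hold Map3k8, has 0 filled points among 22.

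Some marker genes of other cell types moved between the groups as well, where 2.40% of all tested genes changed. Of 8 macrophage markers 4 were tested and 1, Cd14, rose. The summed level of all 8 was 42.3 to 48.1 CPM against 33.8 to 34.6 CPM, with Adgre1, Ptprc and Itgam at 9 or fewer counts in every library. Of 8 peritubular and fibroblast markers 5 were tested, of which Pdgfra rose and Col1a2 and Col3a1 fell. The summed level of all 8 was 18022 to 18842 CPM against 21512 to 22887 CPM, nearly all of it collagen, with Thy1 at 0 counts. Of 8 Sertoli cell markers 5 were tested and 1, Gdnf, rose. The sum of all 8 was 670 to 762 CPM against 623 to 657 CPM, with Wt1, Cldn11 and Fshr at 0 counts. The Leydig cell list summed to at most 3.01 CPM and the endothelial list to at most 1.87 CPM in any library, and of their 3 tested genes 0 passed edgeR (0 with an unadjusted p under 0.05). The part of these shifts in the values of Spry1 was not tested, and in bulk libraries fewer cells of a type and less RNA per cell cannot be told apart.

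Genes with a profile like that of Spry1 were ranked by the root mean square difference of log2 CPM over the 6 libraries, each gene centred on its own mean, among 9975 other genes of at least 10 CPM on average. The nearest were Capn6, a calpain-family gene without protease activity, at 0.126, Cspg4, the NG2 proteoglycan of pericytes and progenitor cells, at 0.131, and 5031439G07Rik at 0.152. Capn6 stood at 7.65 to 8.66 CPM against 13.0 to 17.7 CPM, and Cspg4 at 74.3 to 91.4 against 126 to 151 CPM. Likeness was measured on the same libraries as the fold change, so a ranking of this kind picks genes that differ between the groups.

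**Figure D4:**
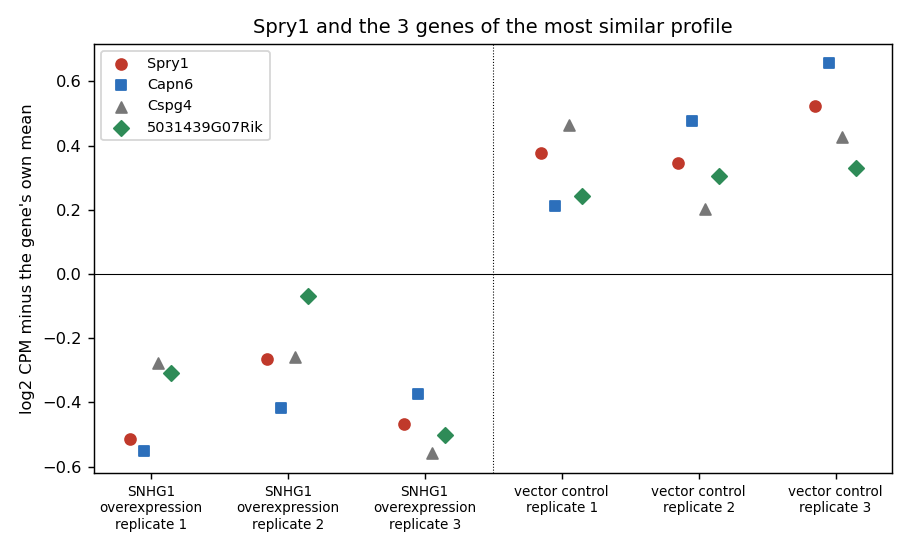
Log2 CPM of Spry1 and of the 3 genes nearest to it in profile, each centred on its own mean (y axis), in the 6 libraries (x axis). All 4 lie below 0 in the 3 labelled libraries and above 0 in the 3 vector libraries.

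**Figure D5:**
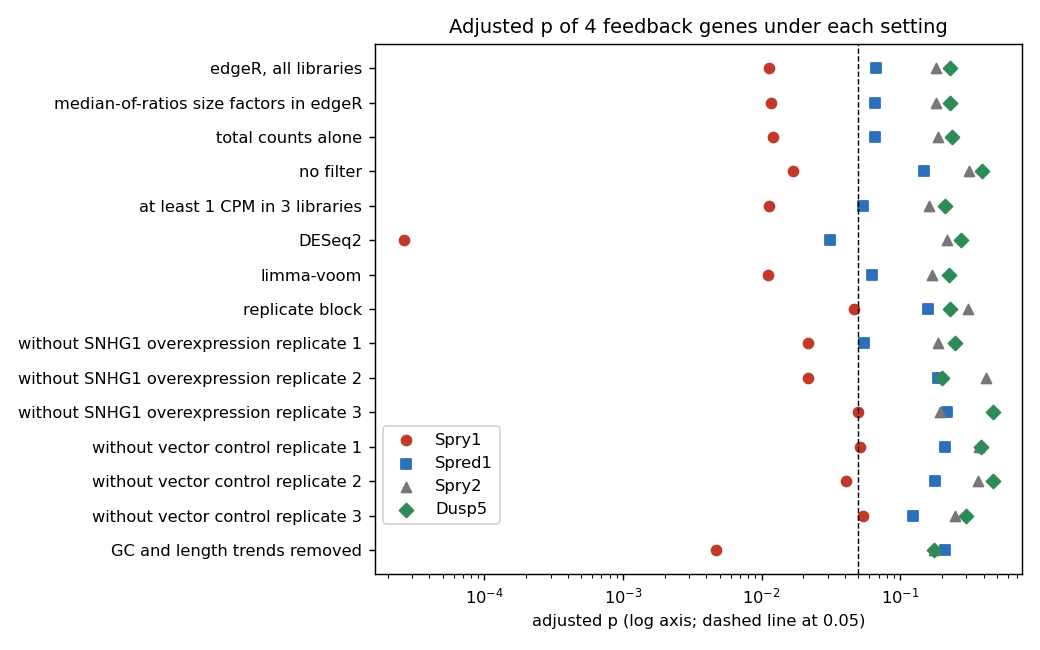
Adjusted p (x axis, log scale, dashed line at 0.05) of Spry1, Spred1, Spry2 and Dusp5 in the edgeR fit and under each of 14 alternatives (y axis). Spry1 lies left of the line except without vector control replicates 1 and 3; Spred1 is left of it with DESeq2 alone.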

How the data were processed

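Poly(A) mRNA of 6 libraries, 3 per group, was sequenced, and groups were taken from the titles. The authors deposited 1 table of whole-number counts and of FPKM values per gene and library; the build GRCh38 and the tools HISAT2, StringTie and SAMtools 1.3.1 are named per the submitters' processing notes, whereas the identifiers are mouse Ensembl genes. For the counting tool, the use of strand and the coordinate build, the sources used here give nothing. Counts were tested with edgeR 4.0.16 in R 4.3.3 (quasi-likelihood F test, TMM, filterByExpr, Benjamini-Hochberg adjustment over all 14605 tested genes, threshold 0.05). Standard errors are the fold change divided by the root of F, and intervals are 95%. The deposited FPKM served only for levels per length. No per-sample column was left out (0 unused). Alternatives used DESeq2 1.42.0, limma 3.58.1 and mgcv 1.9.3, and the fit was tested on simulated data.

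Members and gene lists were chosen with earlier results of these data known. Named genes were all members, Snhg1, up to 4 changed genes per pathway list, 11 fixed pathway genes (1 of them not reported here) and the 3 genes nearest in profile to each member that passed; other genes (Spred3, Dusp7 to Dusp10, Dusp16, Ret, Crk, Grb2 and cell markers) were named after their values were seen. Promoter sequences are from RefSeq (GRCm38.p6); Dusp4 and Spry4 are named only.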

Additional observations from a re-analysis of the deposited data

How the results depend on the processing

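Of 14 alternatives, removal of GC and length trends was chosen after seeing the data. No member reversed its sign. Against 1 changed member, DESeq2 called 2, because Spred1 (-0.25) passed, and counts without single libraries ran from 0 to 1. Without single libraries Spry1 ran from -0.91 to -0.78, and its call was lost without vector control replicates 1 (-0.85) and 3 (-0.78). Against 350 changed genes (225 higher, 125 lower), DESeq2 called 648 (360 and 288), and no filter left 77 lower. Without single libraries the counts ran from 123 to 807, 93 to 434 higher and 30 to 373 lower. Leaving out SNHG1 overexpression replicate 1 gave 807, replicate 2 gave 162 and replicate 3 gave 176. Leaving out vector control replicate 1 gave 123, replicate 2 gave 151 and replicate 3 gave 143. Against 12 changed genes in the pathway lists, DESeq2 called 21, and 4 to 16 changed without single libraries (16 without SNHG1 overexpression replicate 1). The causes were not tested, and each fit without a library, the one that gave 807 included, holds fewer samples. With the replicate number as a block, 163 genes changed (121 higher, 42 lower), 7 of them in the pathway lists, and Spry1 still passed (adjusted p = 0.0466). Deviations of same-numbered libraries correlated at 0.05, -0.049 and -0.031. Such low values did not show pairing by number, and they cannot show its absence. SNHG1 overexpression replicate 1 correlated best with the vector library of its own number, and replicates 2 and 3 did not. At 3 libraries per group and 71 to 274 counts, Spry1, Dusp4 and Dusp5 were measured less precisely than the other tested members.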
